A study of Mus musculus with 51 samples.

Results

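Myc-CaP tumors from mice given TAK-243 were compared with tumors from mice given vehicle. Samples were taken by their titles, which gave 5 TAK-243 tumors and 6 vehicle tumors, 11 of the 51 bulk RNA-seq samples of the series. Myc-CaP is a prostate cancer line from a transgenic mouse on the FVB background in which a prostate promoter drove Myc. The study asked how the ubiquitin-activating enzyme UBA1 shapes tumors and their immune cells, and TAK-243 blocks that enzyme. The labels give the line as Myc-CaP and the genotype as WT for all 11 tumors. By the study's methods, cells were injected under the skin of both flanks of male FVB mice, and mice were randomized once tumors had formed. TAK-243 was injected into a vein at 25 mg/kg, 2 doses per week. The labels number tumors and not mice, so 2 tumors may come from 1 mouse, and the p-values measure the spread between tumors. The time between the last dose and the collection of tumors is not given in the sources used here.

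Cultured Myc-CaP cells served as the reference for the direct response to the drug. They were untreated or given 50 nM TAK-243 for 18 hours, each without or with interferon gamma (IFN-γ), with 2 libraries in each of the 4 groups. Nothing in the labels says whether the 2 libraries of a group came from separate cultures. Dose, time and route differ between mice and dishes, so a difference between the settings cannot be assigned to any of them.

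UBA1 is an E1 enzyme: it activates ubiquitin and passes it to the E2 enzymes, the first step in tagging most proteins for the proteasome or for signaling. Cells that cannot tag proteins accumulate unfinished and misfolded protein, which is known to engage heat shock factors, the unfolded protein response, the p53 pathway and autophagy receptors. Ubiquitin also drives the ordered loss of cyclins and replication factors, so the cell cycle depends on it.

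Total counts were 26892692 to 35046975 per vehicle tumor (median 30042578). They were 33664656, 26121269, 28855129, 26700299 and 34500782 in TAK-243 tumors 1 to 5. The 8 culture libraries were shallower, with 12860844 to 16793793 counts (median 15033498). Of 40077 genes in the table, 17299 had enough counts to be tested in the tumors. Levels below are CPM, counts scaled for depth and composition, unless TPM is named, which is also scaled for gene length. Replicate tumors differed by far more than counting error, with chi-square values per degree of freedom from 10.8 (vehicle tumors 3 and 4) to 99.2 (vehicle tumors 4 and 5), against 1.84 to 2.63 for the 4 pairs of culture libraries. In a principal component analysis of the 11 tumors the first 3 components held 28.5%, 17.3% and 13.4% of the variance.

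The tumors carried the RNA of their line in part. Myc, the driver of the line, stood at 817 to 1588 CPM in vehicle tumors (median 1451) and at 1932, 985, 798, 777 and 963 CPM in TAK-243 tumors 1 to 5. Only TAK-243 tumor 1 lay above all vehicle tumors and tumors 3 and 4 lay below them, with a log2 fold change of −0.31 (standard error, SE, 0.24; edgeR, Benjamini-Hochberg adjusted p = 0.567). Pbsn, a secreted product of the differentiated prostate that is also the source of the promoter often used to drive such transgenes, was named after its values were seen and had 0 counts in all 11 tumors.

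Uba1 (ENSMUSG00000001924.15), which encodes the target of the drug, stood at 311 to 379 CPM in vehicle tumors (median 352) and at 340.4, 322, 351, 283 and 368 CPM in TAK-243 tumors 1 to 5. The groups overlapped, with TAK-243 tumor 4 alone below all vehicle tumors. The log2 fold change was −0.06 (SE 0.08, 95% interval −0.24 to 0.12, adjusted p = 0.752). In cultured cells Uba1 RNA rose by 0.37 on the log2 scale (adjusted p = 5.68e-12), from 452 and 445 CPM to 594 and 565 CPM, and the changes in the 2 settings differed (difference tumors minus culture −0.41, adjusted p = 0.0297). The drug acts on the enzyme, so the RNA level does not report its activity in either setting.

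A total of 25 of 17299 genes passed an adjusted p of 0.05 in the tumors. Of these, 15 were higher with TAK-243 (0.0867% of genes tested) and 10 were lower (0.0578%). The 10 lower genes were 8 histone genes, Kpna2 and Tubb6. The 15 higher genes held 6 of the 10 neutrophil genes tested and 3 listed macrophage genes. The others were Pla2g7, Slfn4, Il1r2, Mmp19, Apod and Fcgbp. Far more genes lay below an unadjusted p of 0.05, with 1262 higher (7.3%) and 1325 lower (7.66%). Over all genes tested the median log2 fold change was 0.01 and the median size of a change was 0.146, close to the median standard error of 0.146. In cultured cells 9644 of 14551 genes passed, 4701 higher (32.3%) and 4943 lower (34%), with a median size of 0.527.

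The count of 25 depended on single tumors. Leaving out vehicle tumors 1 to 5 in turn gave 1, 11, 7, 5 and 6 genes, and leaving out TAK-243 tumors 1, 2, 4 and 5 gave 10, 13, 10 and 299. DESeq2 called 542 genes, 210 higher and 332 lower, and limma-voom called 26. All 25 genes kept their direction in every one of these fits. A fit with the tumor number as a block called 8 genes, all higher, although nothing says that a number ties a TAK-243 tumor to a vehicle tumor.

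**Figure D1:**
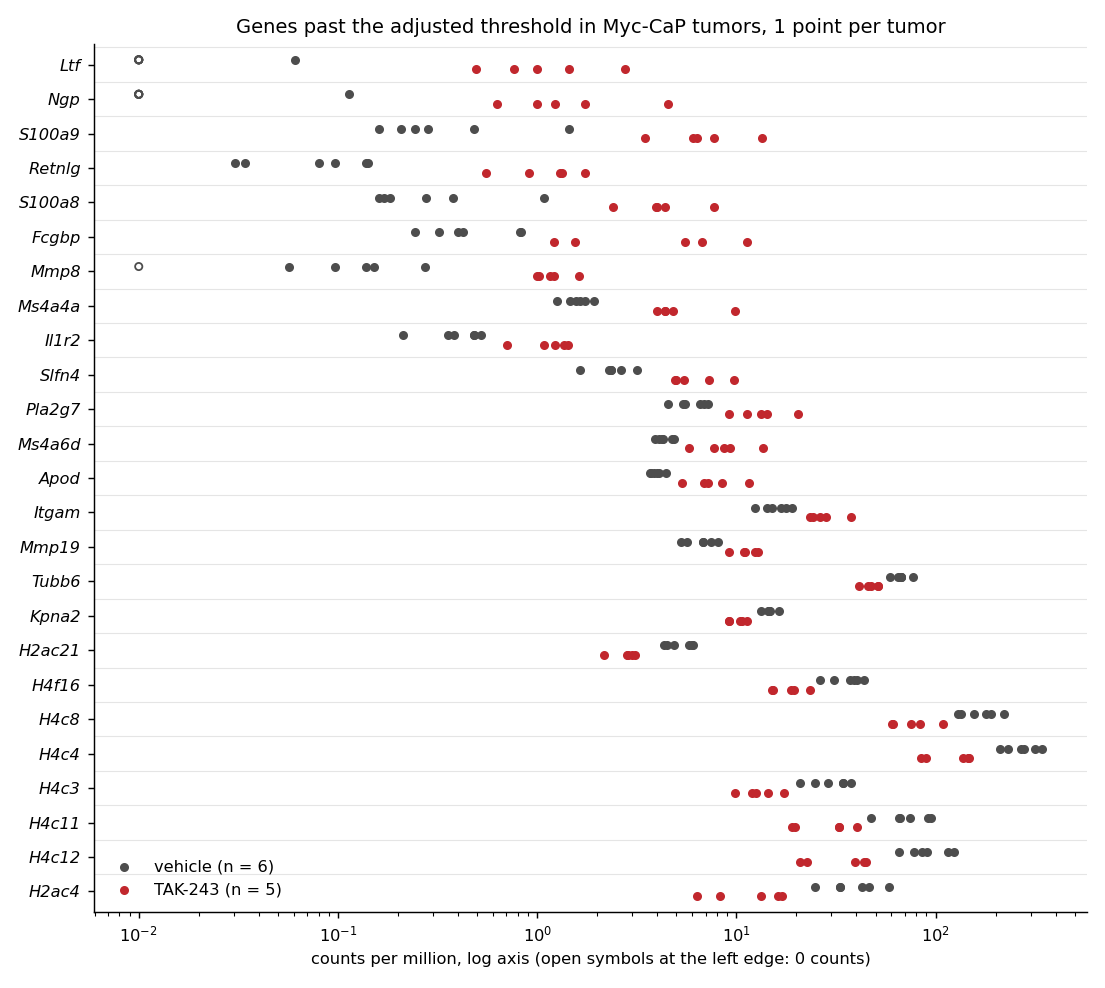
CPM on a log axis of the 25 genes past the adjusted threshold, 1 point per tumor, with 6 vehicle tumors in grey and 5 TAK-243 tumors in red. Open symbols at the left edge are tumors with 0 counts. The groups do not overlap for any of the 25 genes, from Ltf with the largest increase to H2ac4 with the largest decrease.

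Replication-dependent histone genes encode the bulk of the histone protein made while DNA is copied, and their RNA is abundant in S phase. They were lower in the tumors given TAK-243. Of 69 such genes 63 were tested, and 62 were lower and 1 was higher. Below an unadjusted p of 0.05 there were 59 lower and 0 higher, and 7 passed the adjusted threshold, all lower. In 45 of the 63 every TAK-243 tumor lay below every vehicle tumor, against 1.15% of all genes tested. The median log2 fold change of the 63 was −1.26, against 0.01 over all genes. Counts of the listed histones made up 0.314% to 0.533% of all counts in vehicle tumors (median 0.404%). In TAK-243 tumors 1 to 5 they made up 0.129%, 0.262%, 0.200%, 0.130% and 0.229%, all below the lowest vehicle tumor. In bulk tumors, fewer cells of a type and less RNA per cell cannot be told apart, here and in all results that follow.

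Among the core histones of the nucleosome, H4 led the calls. H4c12 (ENSMUSG00000064288.4) stood at 65.5 to 123 CPM in vehicle tumors (median 87.9) and at 22.6, 44.5, 39.4, 20.9 and 43.5 CPM in TAK-243 tumors 1 to 5. No TAK-243 tumor reached the lowest vehicle tumor, and tumors 1 and 4 were lowest. Its log2 fold change was −1.44 (SE 0.23, adjusted p = 0.0443). H4c3 (ENSMUSG00000060678.5) stood at 20.9 to 37.8 CPM (median 31.5) against 9.85, 14.3, 17.3, 11.96 and 12.6 CPM, again without overlap, with a log2 fold change of −1.19 (SE 0.17, adjusted p = 0.0284). H4c4, H4c8 and H4c11 fell by 1.19, 1.11 and 1.35 on the log2 scale (adjusted p = 0.0302, 0.0443 and 0.0488). H4f16, another H4 gene that was not on the list, fell by 0.98 (adjusted p = 0.0349). The most abundant H4 copy, Hist1h4n, had a mean of 2198 TPM in vehicle tumors and a log2 fold change of −1.10, with no overlap between groups, and did not pass (adjusted p = 0.055).

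H2A genes gave the steepest decrease past the test. H2ac4 (ENSMUSG00000061615.2) stood at 24.7 to 58.5 CPM in vehicle tumors (median 37.8) and at 8.23, 16.9, 16.1, 6.36 and 13.3 CPM with TAK-243. The groups did not overlap, and the log2 fold change was −1.70 (SE 0.28, adjusted p = 0.047). H2ac21 stood at 4.35 to 6.04 CPM (median 5.34) against 3.09, 2.82, 2.85, 2.16 and 2.99 CPM, with a log2 fold change of −0.92 (adjusted p = 0.0302). H2bc18, which encodes H2B and was among the most abundant histone genes, had 100.2 to 179 CPM (median 146) against 44.9, 76.7, 78.1, 33.9 and 85.9 CPM. These groups did not overlap either, but its change of −1.14 missed the threshold (adjusted p = 0.0841). Many histone genes are near-identical copies, so the split of counts between copies is uncertain. The RNAs of these genes lack a poly-A tail, and the labels describe capture with oligo(dT) whereas the study's methods name removal of ribosomal RNA, so the share of histone RNA that was captured is not known.

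Promoter sequence is shown for 3 of the called histone genes, because histone promoters share short motifs that set them apart, and for Kpna2, the called gene that encodes an importin carrying cargo to the nucleus. Sequences are from RefSeq on GRCm38.p6, 250 bases upstream of the start site, 5′ to 3′ on the gene's strand. Capitals mark the motif CCAAT, the TATA box letters TATAAA, the motif TTTGAA and the motif GGTCCG, searched on both strands, so that the reverse complement is in capitals too. H4c3 lies at chr13:23698459-23698708 (− strand), H4c12 at chr13:21750554-21750803 (− strand), H2ac4 at chr13:23750838-23751087 (+ strand) and Kpna2 at chr11:106999526-106999775 (− strand).
H4c3 promoter: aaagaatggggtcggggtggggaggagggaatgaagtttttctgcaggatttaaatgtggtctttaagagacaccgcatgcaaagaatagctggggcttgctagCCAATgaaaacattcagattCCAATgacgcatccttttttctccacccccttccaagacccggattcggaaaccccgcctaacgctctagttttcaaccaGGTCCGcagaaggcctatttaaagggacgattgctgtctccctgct
H4c12 promoter: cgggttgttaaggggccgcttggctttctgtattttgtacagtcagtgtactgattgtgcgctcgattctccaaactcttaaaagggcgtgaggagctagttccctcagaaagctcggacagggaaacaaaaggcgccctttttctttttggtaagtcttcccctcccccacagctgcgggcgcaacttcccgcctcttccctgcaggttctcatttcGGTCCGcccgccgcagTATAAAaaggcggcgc
H2ac4 promoter: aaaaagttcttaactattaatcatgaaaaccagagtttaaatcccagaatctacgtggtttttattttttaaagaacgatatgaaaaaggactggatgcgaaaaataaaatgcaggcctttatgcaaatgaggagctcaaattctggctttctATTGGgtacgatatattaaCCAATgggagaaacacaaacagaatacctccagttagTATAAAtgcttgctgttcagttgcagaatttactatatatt
Kpna2 promoter: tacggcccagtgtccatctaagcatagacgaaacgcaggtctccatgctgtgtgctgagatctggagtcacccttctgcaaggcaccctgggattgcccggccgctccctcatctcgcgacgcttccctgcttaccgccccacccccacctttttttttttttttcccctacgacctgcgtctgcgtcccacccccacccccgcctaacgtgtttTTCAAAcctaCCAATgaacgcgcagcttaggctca

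Of the 63 histone genes tested, 56 matched a RefSeq promoter, with 57 promoters in all. CCAAT was in 48 of the 57 (84.2%), against 34.9% of the 15608 promoters of genes tested in the tumors. TATAAA was in 26 (45.6%), against 8.58%, and TTTGAA, the letters of a repressor element of cell cycle promoters, was in 25 (43.9%), against 12.3%. GGTCCG, found upstream of H4 genes, was in 8 of the 11 matched H4 promoters (72.7%) and in 0 of the 16 H2A promoters, against 10.1% of all. CCAAT was in 16 of 16 H2A promoters and in 3 of 11 H4 promoters. The 54 promoters of the mitosis list held CCAAT in 38 (70.4%) and TTTGAA in 19 (35.2%), and the 52 of the DNA replication list held them in 29 (55.8%) and 9 (17.3%). A match describes the letters in this window and is neither a binding site nor a cause.

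The histone calls depended on the set of tumors and on the fit. None of the 63 genes passed in edgeR without vehicle tumor 1, 3, 4 or 5 or without TAK-243 tumor 1 or 4, while 3 passed without vehicle tumor 2, 12 without vehicle tumor 6, 4 and 2 without TAK-243 tumors 2 and 3, and 40 without TAK-243 tumor 5. With all tumors DESeq2 called 56 and limma-voom 9, while edgeR called 0 with 10 counts in every tumor and 0 with the tumor number as a block. The median over the list ranged from −1.47 to −1.14 over all settings tried.

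Genes that process histone RNA and histones made outside S phase moved less. Of 11 processing genes, 10 were lower and 7 lay below an unadjusted p of 0.05, with a median of −0.29. None passed the adjusted threshold in edgeR or limma-voom, and 1 did in DESeq2. Slbp, which binds the stem-loop that ends histone RNAs, stood at 47.8 to 72.2 CPM in vehicle tumors (median 60.3) and at 36.8, 53.4, 57.9, 43.6 and 54.9 CPM with TAK-243. The groups overlapped (log2 fold change −0.32, adjusted p = 0.295). Npat, the coactivator of histone transcription, had 77.9 to 94.1 CPM (median 85.9) against 76.2, 72.8, 75.7, 67.3 and 78.0 CPM, with 4 of the 5 below all vehicle tumors (−0.22, adjusted p = 0.193). Both genes rose in cultured cells, Slbp by 0.54 and Npat by 1.11, and their changes differed between the settings (adjusted p = 0.00715 and 2.71e-07). Of 10 variant histone genes tested, 10 were lower, 4 of them below an unadjusted p of 0.05, with a median of −0.25. None passed in edgeR, 3 did in DESeq2 and 1 in limma-voom. H2ax, which marks DNA breaks when phosphorylated and whose RNA can also take the replication-dependent form, stood lowest of these at −0.97 (adjusted p = 0.064), with no overlap between groups.

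DNA replication genes were lower throughout the list. All 53 were lower, 50 of them below an unadjusted p of 0.05, with a median log2 fold change of −0.72. None passed the adjusted threshold in edgeR or limma-voom, whereas DESeq2 called 20. The level of the list, the mean log2 CPM of its genes, was 4.99 to 5.69 in vehicle tumors (median 5.34) and 4.16, 5.07, 4.998, 3.93 and 4.87 in TAK-243 tumors 1 to 5. Tumors 1 and 4 lay far below all vehicle tumors, tumor 5 lay just below them, and tumors 2 and 3 lay within the vehicle range. Rrm2, the subunit of ribonucleotide reductase that limits the supply of deoxynucleotides, stood at 128 to 240.4 CPM in vehicle tumors (median 188) and at 47.8, 100, 78.7, 32.5 and 84.8 CPM with TAK-243. These groups did not overlap, yet its change of −1.38 (SE 0.27) missed the threshold (adjusted p = 0.0701). Rpa1, which coats single-stranded DNA, had 137 to 160.4 CPM (median 148) against 99.6, 131, 113, 91.2 and 115 CPM, also without overlap (−0.44, adjusted p = 0.0877).

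Genes of the G1/S transition were lower in 22 of 25 cases, 13 of them below an unadjusted p of 0.05, with a median of −0.36. None passed the adjusted threshold in edgeR or limma-voom, and 5 did in DESeq2. Cks1b, which helps the ligase SCF-SKP2 recognize its substrates, stood at 65.4 to 93.0 CPM in vehicle tumors (median 80.8) and at 48.2, 53.5, 60.1, 32.4 and 47.2 CPM with TAK-243. All 5 lay below all vehicle tumors (−0.73, adjusted p = 0.0701). Ccna2, the cyclin of S phase and G2, had 101 to 143 CPM (median 124) against 50.8, 73.3, 86.1, 39.1 and 88.7 CPM, again without overlap (−0.86, adjusted p = 0.1). Cdk4, the kinase of G1, changed less, with 213 to 270.4 CPM (median 239.7) against 203, 223, 213, 167 and 189 CPM and a log2 fold change of −0.27 (adjusted p = 0.238).

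Mitotic genes followed the same direction. All 60 were lower, 59 of them below an unadjusted p of 0.05, with a median of −0.72. In 15 of the 60 every TAK-243 tumor lay below every vehicle tumor, against 1.15% of all genes tested. None passed the adjusted threshold in edgeR or limma-voom, whereas DESeq2 called 39, and edgeR without TAK-243 tumor 5 called 33. The level of the list was 5.59 to 6.19 in vehicle tumors (median 5.82) and 4.69, 5.13, 5.46, 4.60 and 5.68 with TAK-243, so that tumor 5 alone fell within the vehicle range. Cdk1, the kinase that starts mitosis, stood at 55.3 to 78.8 CPM in vehicle tumors (median 66.1) and at 29.5, 42.5, 48.4, 24.8 and 50.1 CPM with TAK-243. The groups did not overlap (−0.76, SE 0.18, adjusted p = 0.115). Spc25, of the kinetochore, had 14.5 to 29.7 CPM (median 21.1) against 7.63, 14.1, 11.7, 10.01 and 14.2 CPM (−0.86, adjusted p = 0.104). Mki67, a widely used mark of cycling cells named here after its values were seen, had 423 to 701 CPM (median 528) against 249, 339.8, 345, 244 and 514 CPM, with tumor 5 inside the vehicle range (−0.69, adjusted p = 0.147).

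Outside the lists, 2 further genes fell past the test. Kpna2 (ENSMUSG00000018362.14) stood at 13.3 to 16.3 CPM in vehicle tumors (median 14.6) and at 10.7, 11.3, 9.14, 9.18 and 10.4 CPM with TAK-243. Its change of −0.53 (SE 0.09, adjusted p = 0.0482) was small but the groups did not overlap. Tubb6 (ENSMUSG00000001473.7), a beta-tubulin of microtubules, had 58.9 to 77.0 CPM (median 66.9) against 45.6, 47.6, 51.4, 41.1 and 51.6 CPM (−0.50, SE 0.08, adjusted p = 0.0488). In cultured cells Tubb6 rose by 0.30, and the difference between settings passed (−0.77, adjusted p = 0.00036).

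**Figure D2:**
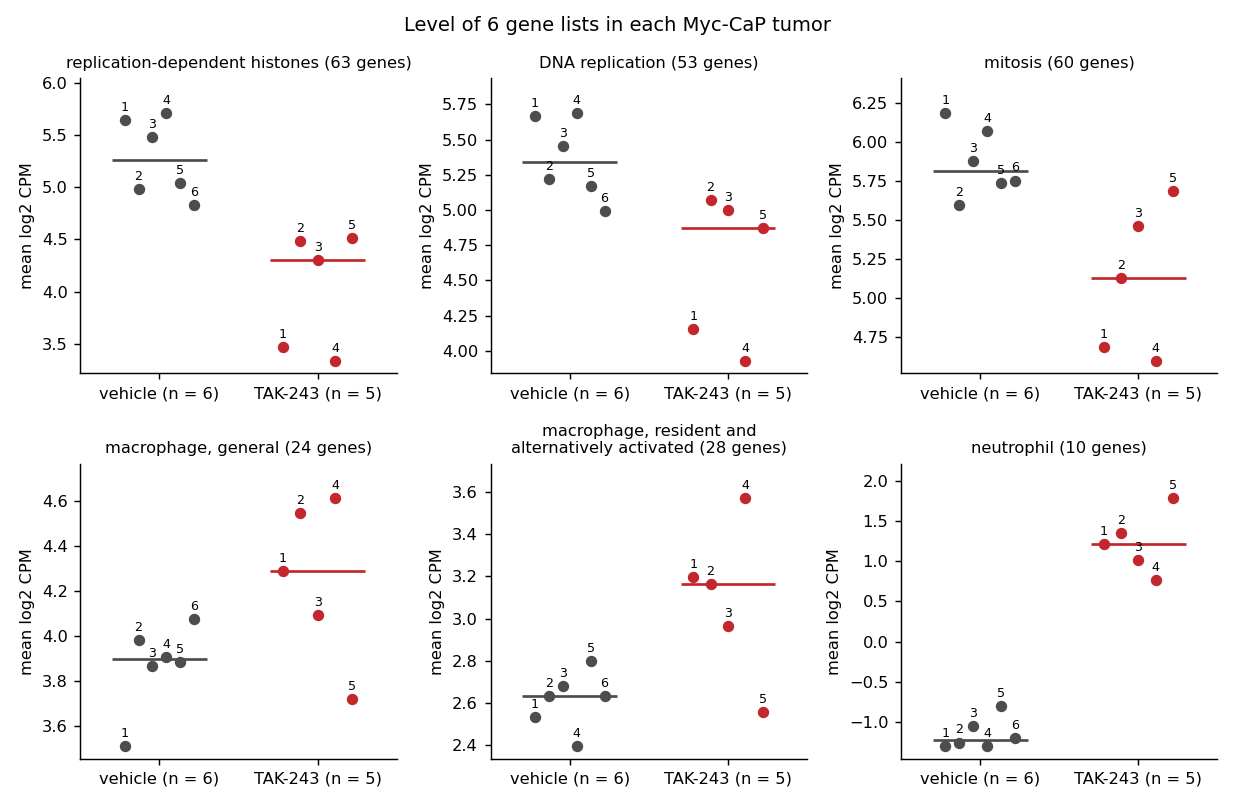
Level of 6 gene lists in each tumor, as the mean log2 CPM of the genes tested, with tumors numbered as in their titles and a line at each group's median (vehicle n = 6, TAK-243 n = 5). Histone levels do not overlap between groups, with at most 4.51 in TAK-243 tumors and at least 4.83 in vehicle tumors, and neutrophil levels do not overlap either, while TAK-243 tumor 5 lies within the vehicle range for both macrophage lists.

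Macrophages are the main phagocytes of solid tumors, and their numbers and states are often read from genes for surface receptors, complement and lysosomal enzymes. Of 24 general macrophage genes, 23 were higher with TAK-243 and 1 was lower. Below an unadjusted p of 0.05 there were 10 higher and 0 lower, 1 passed the adjusted threshold, and the median log2 fold change was 0.37. The summed level of the 24 genes was 465 to 768 TPM in vehicle tumors and 992, 1096, 732, 1201 and 524 TPM in TAK-243 tumors 1 to 5, with Lyz2 the most abundant (mean 173 TPM over the 11 tumors) and no gene at 0 in all tumors. Tumors 1, 2 and 4 lay above all vehicle tumors and tumors 3 and 5 did not. Itgam (ENSMUSG00000030786.18), the integrin CD11b of macrophages, monocytes and neutrophils, was the member that passed. It stood at 12.4 to 19.0 CPM in vehicle tumors (median 15.9) and at 28.04, 24.4, 26.4, 37.8 and 23.3 CPM with TAK-243. All 5 lay above all vehicle tumors (0.82, SE 0.14, adjusted p = 0.0488).

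Genes that define macrophages more narrowly gave smaller and less even differences. Lyz2, lysozyme of myeloid cells, had 82.6 to 128 CPM in vehicle tumors (median 113) and 180.3, 166, 125, 169.7 and 69.6 CPM with TAK-243 (0.40, adjusted p = 0.382). C1qa, a chain of complement C1q, had 19.9 to 35.0 CPM (median 27.6) against 48.6, 53.2, 34.8, 55.9 and 24.99 CPM (0.66, adjusted p = 0.169). Both were above all vehicle tumors in tumors 1, 2 and 4 alone. Csf1r, the receptor on which macrophages depend, and Adgre1, which encodes the F4/80 antigen, were looked up after other values were seen. Csf1r had 16.7 to 24.1 CPM (median 22.3) against 33.2, 37.0, 20.4, 31.0 and 17.6 CPM (0.36, adjusted p = 0.367). Adgre1 had 6.15 to 10.7 CPM (median 9.31) against 11.4, 18.1, 9.17, 13.4 and 4.98 CPM (0.34, adjusted p = 0.566). The same 3 tumors stood high for both, and tumor 5 was the lowest TAK-243 tumor for all 4 genes.

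Genes of resident and alternatively activated macrophages held the clearest members. Of 31 genes 28 were tested, 22 higher and 6 lower, with 13 higher and 0 lower below an unadjusted p of 0.05 and a median of 0.54. In 6 of the 28 every TAK-243 tumor lay above every vehicle tumor, against 0.884% of all genes, and 2 passed the adjusted threshold. Ms4a4a (ENSMUSG00000101389.1), a membrane protein of such macrophages, stood at 1.26 to 1.93 CPM in vehicle tumors (median 1.60) and at 4.82, 4.38, 4.01, 9.84 and 4.39 CPM with TAK-243. The change was 1.78 (SE 0.24, adjusted p = 0.0132). Ms4a6d (ENSMUSG00000024679.10), of the same family, had 3.89 to 4.88 CPM (median 4.24) against 8.63, 9.34, 7.73, 13.6 and 5.76 CPM (1.05, SE 0.18, adjusted p = 0.0488). Neither gene overlapped between groups. Mrc1, the mannose receptor CD206, had 27.4 to 41.7 CPM (median 35.7) against 69.5, 57.3, 66.3, 98.2 and 46.1 CPM. Cd163, the hemoglobin scavenger receptor, had 2.33 to 4.31 CPM (median 2.93) against 8.06, 6.37, 4.57, 12.2 and 7.10 CPM. Neither overlapped, and their changes of 0.92 and 1.29 missed the threshold (adjusted p = 0.064 and 0.0591).

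Not all members of that list differed as much. Selenop, the most abundant member (mean 316 TPM over the 11 tumors), had a change of 0.19 (adjusted p = 0.782). The summed level of the 31 genes was 521 to 816 TPM in vehicle tumors and 845, 799, 728, 1069 and 616 TPM with TAK-243, with no gene at 0 in all tumors. Without TAK-243 tumor 4 the median of the list was 0.29, the lowest over all settings. The count of 3 calls in both macrophage lists ranged with single tumors from 0 without vehicle tumor 1 or 4 to 16 without TAK-243 tumor 5, and was 12 in DESeq2, 2 in limma-voom, and 0 in edgeR with 10 counts in every tumor or with the tumor number as a block.

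Tumors that stood low for the cell cycle also stood high for macrophage RNA in part. TAK-243 tumors 1 and 4, lowest for histones, replication and mitosis, had 992 and 1201 TPM of general macrophage RNA, and tumor 2, near the vehicle tumors for replication, had 1096 TPM. TAK-243 tumor 5, nearest to the vehicle tumors for mitosis, had 524 TPM. The part of macrophage RNA in the lower cell cycle levels was not tested.

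Markers of monocytes and inflammatory macrophages numbered 20 tested of 22, with 15 higher and 5 lower, 9 higher and 1 lower below an unadjusted p of 0.05, and a median of 0.48. None passed in edgeR or limma-voom, and 1 did in DESeq2. Their summed level was 267 to 322 TPM in vehicle tumors and 350, 299, 338, 655 and 341 TPM with TAK-243, with Saa3, an acute-phase protein named after its values were seen, the most abundant (mean 91.4 TPM over the 11 tumors). Tumor 4 stood apart. Lipid and lysosome genes of macrophages, many of which tumor cells also express, gave 10 higher and 3 lower of 13, with 2 higher and 1 lower below an unadjusted p of 0.05, a median of 0.12 (0.01 without TAK-243 tumor 3) and no call in edgeR or limma-voom and 1 in DESeq2. Among these Apoe, which carries lipid out of macrophages, had 75.2 to 142 CPM in vehicle tumors (median 136) and 236, 298, 167, 306 and 152 CPM with TAK-243. All 5 lay above all vehicle tumors, and the change of 0.89 did not pass (adjusted p = 0.113).

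The 6 called genes outside the lists that rose were Slfn4, Pla2g7, Il1r2, Mmp19, Apod and Fcgbp. Slfn4 (ENSMUSG00000000204.16), an interferon-inducible gene of myeloid cells, stood at 1.64 to 3.15 CPM in vehicle tumors (median 2.34) and at 4.99, 7.31, 5.45, 9.77 and 4.92 CPM with TAK-243 (1.43, SE 0.21, adjusted p = 0.0284). Pla2g7 (ENSMUSG00000023913.17), a lipase that degrades platelet-activating factor, had 4.55 to 7.20 CPM (median 6.03) against 13.4, 14.3, 9.17, 20.5 and 11.3 CPM (1.19, SE 0.19, adjusted p = 0.0443). Il1r2, the decoy receptor for interleukin 1, had 0.212 to 0.524 CPM (median 0.431) against 0.71, 1.23, 1.37, 1.08 and 1.43 CPM (1.52, SE 0.25, adjusted p = 0.0488). None of the 3 overlapped between groups. Mmp19, a matrix metalloproteinase, Apod, a lipid carrier, and Fcgbp, a mucin-like protein, rose by 0.76, 0.98 and 3.37 (adjusted p = 0.0488 each). Fcgbp was uneven, with 0.242 to 0.833 CPM (median 0.413) in vehicle tumors against 5.53, 6.70, 1.55, 11.4 and 1.21 CPM.

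Neutrophil genes gave the 5 largest increases among the 25 genes past the test, from very low levels. Of 12 neutrophil genes 10 were tested, 10 were higher and 6 passed the adjusted threshold. In the same number every TAK-243 tumor lay above every vehicle tumor, against 0.884% of all genes tested. Ltf, Ngp, Retnlg and Mmp8 had at most 8 counts in any vehicle tumor. S100a8 and S100a9 had 5 to 27 and 5 to 36 counts there. All 6 called genes met the low-count filter through the TAK-243 tumors. The tally of genes tested and higher is thus set in part by that filter, and every call falls on such genes. S100a9 (ENSMUSG00000056071.12), a subunit of calprotectin, stood at 0.162 to 1.45 CPM in vehicle tumors (median 0.263) and at 7.69, 6.33, 6.05, 3.48 and 13.4 CPM with TAK-243 (4.03, SE 0.51, adjusted p = 0.0107). S100a8, its partner, had 0.162 to 1.09 CPM (median 0.23) against 3.97, 3.95, 4.36, 2.40 and 7.72 CPM (3.63, SE 0.46, adjusted p = 0.0107). Retnlg, a resistin-like protein of neutrophils, had 0.0303 to 0.141 CPM (median 0.0888) against 0.908, 1.30, 1.34, 0.556 and 1.74 CPM (3.68, adjusted p = 0.00916). Mmp8, the neutrophil collagenase, had 0 to 0.274 CPM (median 0.118) against 0.993, 1.16, 1.02, 1.22 and 1.62 CPM (3.27, adjusted p = 0.0107). None of the 4 overlapped between groups, and the highest vehicle tumor for S100a8 and S100a9, number 5, was also the one with the most hemoglobin RNA.

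The secondary granule genes rested on few counts. Ltf, lactoferrin, had 2 counts in the vehicle tumors together and 200 in the TAK-243 tumors, a ratio of 123 after scaling by depth, with a counting interval of 33.7 to 1026 (adjusted p = 0.0104). Ngp, neutrophilic granule protein, had 4 and 282 counts, a ratio of 87.0 with an interval of 33.6 to 321 (adjusted p = 0.0132). These intervals cover counting error only. Ly6g, the defining surface antigen of mouse neutrophils, named after its values were seen, had 0 counts in all vehicle tumors and 1, 0, 0, 0 and 2 in TAK-243 tumors 1 to 5. Cxcr2, a chemokine receptor of neutrophils, was already at 5.57 to 6.59 CPM in vehicle tumors and had a change of 0.20 (adjusted p = 0.424), and cultured cells hold some Cxcr2 RNA. The summed level of the 12 genes was 7.14 to 20.2 TPM in vehicle tumors and 88.4, 82.7, 72.8, 50.3 and 134 TPM with TAK-243, without overlap. Without vehicle tumor 1 the test called 1 neutrophil gene, and without any other single tumor 5 to 7. With the tumor number as a block it called 4. The median of the list, 3.45, rests on genes with few vehicle counts, and where genes needed 10 counts in every tumor it was 0.63 and 0 neutrophil genes were called.

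Other cell types were checked with lists of their markers, and the range over the other settings follows each median. T and NK cell genes, 6 tested of 15, had a median of 0.27 (−0.07 to 0.32), with 10 of the 15 under 1 TPM in all tumors. Without TAK-243 tumor 2 it was 0.05 and without vehicle tumor 5 it was 0.15. Their summed level was 9.78 to 14.7 TPM in vehicle tumors and 13.9, 16.3, 11.2, 16.3 and 8.55 TPM with TAK-243. The only B cell gene tested of 6, Cd79a, had a change of 0.06 (−0.14 to 0.27). Without a low-count filter the median of the B cell list was −0.40. Dendritic cell genes, 6 of 10, had a median of −0.24 (−0.48 to 0.05) and endothelial genes, 10 of 10, −0.09 (−0.27 without TAK-243 tumor 5 to −0.01 without TAK-243 tumor 1). Fibroblast genes, 12 of 12, had a median of 0.12, from −0.03 without TAK-243 tumor 4 to 0.24 without vehicle tumor 6.

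Genes of tissue around the tumors and of blood gave medians that turned on single tumors or settings. Erythroid genes, 5 of 5, had a median of −0.61 that was 0.63 without vehicle tumor 5 and −2.38 without TAK-243 tumor 5. Erythroid RNA was highest in the tumors numbered 5, at 4845 TPM with vehicle and 2845 TPM with TAK-243. Adipocyte genes, 5 of 6, had a median of −0.66, which ranged from −1.14 without TAK-243 tumor 5 to −0.11 with 10 counts in every tumor. Skeletal muscle genes, 10 of 14, had a median of −1.56 that was 0.09 without vehicle tumor 6, where their sum was 547.5 TPM, and 0.26 with the tumor number as a block. Of the 8 keratinocyte genes 1 was tested, Sbsn (0.50, and 0.26 without TAK-243 tumor 1), the median without a low-count filter was 7.43, and their sum reached 139.8 TPM in TAK-243 tumor 1 against at most 18.1 TPM in vehicle tumors. Mast cell genes, 4 of 5, had a median of 1.58 that was −0.27 with 10 counts in every tumor, 0.79 without TAK-243 tumor 1 and 2.12 without both tumors numbered 5. Their sum was 1.91 to 5.91 TPM in vehicle tumors and 20.2, 4.34, 2.76, 10.3 and 3.30 TPM with TAK-243. None of the genes of these 10 cell types passed in edgeR or limma-voom, and DESeq2 called 1 each of the mast cell, fibroblast and endothelial genes. Below an unadjusted p of 0.05 lay 3 mast cell genes, 2 fibroblast genes, 2 endothelial genes and 1 gene each of the T and NK, dendritic, muscle and adipocyte lists. The part of these cell types in the other results was not tested. With both tumors numbered 5 left out, a choice made after seeing the data, 29 genes passed, of which 6 were neutrophil genes, 4 were resident macrophage genes and 0 were histones.

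**Figure D3:**
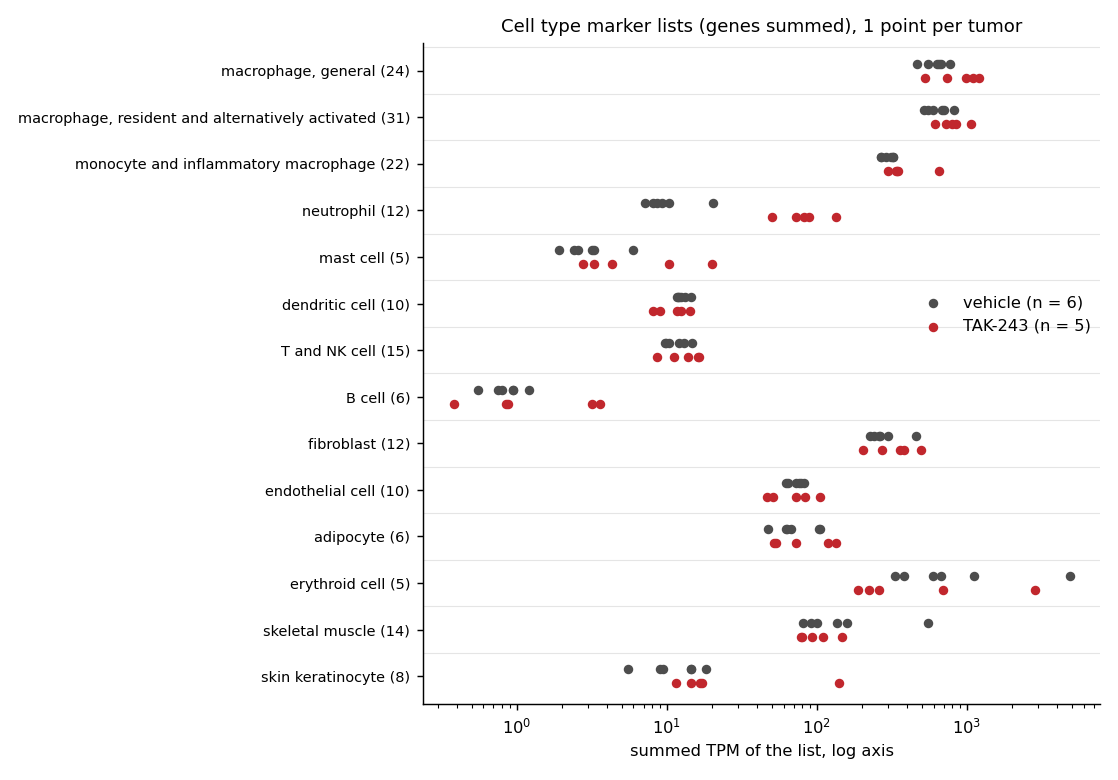
Summed TPM of each cell type marker list on a log axis, 1 point per tumor, with 6 vehicle tumors in grey and 5 TAK-243 tumors in red and the number of genes summed in brackets. Neutrophil sums do not overlap between groups (at most 20.2 TPM with vehicle and at least 50.3 TPM with TAK-243), while the sums of every other list do.

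Interferon-stimulated genes, which cells express on sensing interferons and which tumor and immune cells share, stood slightly higher. Of 42 tested, 35 were higher and 7 lower, with 17 higher and 0 lower below an unadjusted p of 0.05. In 5 of the 42 every TAK-243 tumor lay above every vehicle tumor, against 0.884% of all genes tested. The median was 0.27, and 0 passed in edgeR (1 without the low-count filter), 1 in limma-voom and 8 in DESeq2. The level of the list was 2.30 to 3.21 in vehicle tumors (median 2.92) and 3.12, 3.27, 3.15, 3.65 and 3.08 with TAK-243, so that the groups overlapped. Oasl1, a regulator of antiviral translation, had 1.61 to 4.90 CPM in vehicle tumors (median 3.26) and 8.23, 8.83, 6.01, 11.9 and 8.03 CPM with TAK-243 (1.37, adjusted p = 0.0606). Usp18, the protease that removes ISG15 from proteins, had 2.39 to 5.31 CPM (median 4.95) against 6.84, 9.63, 7.94, 10.6 and 7.03 CPM (0.96, adjusted p = 0.1). Ifit1, which binds foreign RNA, had 1.97 to 6.68 CPM (median 3.44) against 9.11, 6.70, 9.70, 12.3 and 7.03 CPM (1.21, adjusted p = 0.12). None of the 3 overlapped between groups. B2m, the light chain of MHC class I and the most abundant member, had 377 to 888 CPM (median 734) against 769, 1156, 657, 766 and 794 CPM (0.24, adjusted p = 0.592). The classical MHC class I and II genes and the T cell receptor genes were not analysed here. A list of 2 other MHC class II genes, Cd74 and Ciita, had a median of −0.34 (−0.73 to −0.08 over the other settings). Both were lower and none passed in edgeR, DESeq2 or limma-voom.

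Stress responses that follow a block of protein turnover were looked for gene by gene. The integrated stress response, in which ATF4 raises amino acid synthesis and transport, gave lower values for most genes. Of 31 genes tested, 28 were lower and 3 higher, 3 lower and 1 higher lay below an unadjusted p of 0.05, and the median was −0.24 (−0.37 without TAK-243 tumor 5), with 0 past the adjusted threshold in edgeR and limma-voom and 1 in DESeq2. In culture 7 of 28 rose and 19 fell, with a median of −0.32, so that the list as a whole did not rise there either. Psat1, of serine synthesis, had 146 to 340.2 CPM in vehicle tumors (median 241) and 141, 115, 241, 72.4 and 197 CPM with TAK-243 (−0.68, adjusted p = 0.296). Nupr1, a stress-induced chromatin protein, stood higher. It had 30.6 to 58.3 CPM (median 43.5) against 61.5, 59.7, 78.3, 83.7 and 99.2 CPM, without overlap (0.78, SE 0.18, adjusted p = 0.109). In cultured cells Nupr1 rose by 1.38, and the difference between settings did not pass (−0.57, adjusted p = 0.192). Ddit3, which encodes CHOP and was picked after its values were seen, had 6.79 to 22.1 CPM (median 13.6) against 9.90, 12.7, 11.99, 13.3 and 20.2 CPM (−0.02, 95% interval −0.56 to 0.53, adjusted p = 0.981). In cultured cells it rose by 3.87, from 1.92 and 1.87 to 27.8 and 27.7 CPM, and the changes differed (−3.86, adjusted p = 9.31e-06).

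Chaperones of the endoplasmic reticulum and other genes of the unfolded protein response stayed near the vehicle level. Of 24 tested, 18 were higher and 6 lower, the median was 0.04 (0.02 to 0.11 over the other settings), 0 lay below an unadjusted p of 0.05 in edgeR, 0 were called by DESeq2 or limma-voom, and the 95% interval of all 24 changes lay within 1 on the log2 scale. Hsp90b1, the chaperone GRP94, had 1221 to 1609 CPM in vehicle tumors (median 1559) and 1415, 1545, 1480.2, 1369 and 1763 CPM with TAK-243 (0.01, interval −0.19 to 0.22, adjusted p = 0.957). In culture 10 of 24 genes rose and 10 fell, with a median of 0.00. Xbp1, the transcription factor spliced in this response, had 81.3 to 149 CPM (median 105) against 146, 106, 141, 166 and 159 CPM (0.35, adjusted p = 0.344). In cultured cells Xbp1 fell by 0.90 and the difference passed (1.27, adjusted p = 0.00234). The tables hold gene totals, so splicing of Xbp1 was not analysed here.

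Cytosolic heat shock genes, the targets of HSF1, rose in culture and not in tumors. In cultured cells 19 of 21 rose and 1 fell, with a median of 0.98. In tumors 0 of 22 passed, 0 lay below an unadjusted p of 0.05 in edgeR and 0 were called by DESeq2 or limma-voom, with 14 higher, 8 lower and a median of 0.05 whose sign changed in 5 of 19 other settings. For 17 of the 22 the 95% interval lay within 1 on the log2 scale. Hspa8, the constitutive HSP70, stood at 960.4 to 1531 CPM in vehicle tumors (median 1349) and at 1426, 1298, 1607, 1243 and 1396 CPM with TAK-243. The groups overlapped (0.11, interval −0.15 to 0.37, adjusted p = 0.689). In cultured cells it rose from 1162 and 1195 CPM to 3142 and 2960.0 CPM (1.37, adjusted p = 6.7e-27), and the changes differed (−1.24, adjusted p = 0.000117). Hsp90ab1, an HSP90 isoform and the most abundant member, had 2608 to 3461 CPM (median 3067) against 2741, 2807, 3080.1, 2516 and 3298 CPM in tumors (−0.06, adjusted p = 0.809). It rose by 1.06 in culture, with a difference of −1.09 (adjusted p = 5.96e-05). The difference between settings passed for 10 of 22 genes, all lower in tumors, against 14.7% of all genes in that direction.

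Oxidative stress and p53 genes showed no common direction. Of 24 NRF2 genes 12 were higher and 12 lower with a median of 0.00 (−0.03 to 0.08 over the other settings), 0 higher and 1 lower lay below an unadjusted p of 0.05, and 22 intervals lay within 1. In culture 9 of 22 rose and 11 fell, with a median of −0.06. The difference passed for 7 of 24 higher in tumors and 7 lower, against 16.5% and 14.7% of all genes. Hmox1, heme oxygenase, picked after its values were seen, had 20.3 to 50.5 CPM in vehicle tumors (median 33.6) and 21.3, 17.95, 21.97, 40.7 and 48.0 CPM with TAK-243 (−0.19, adjusted p = 0.786), against a rise of 1.97 in culture (difference −2.13, adjusted p = 0.00319). Of 28 p53 targets 12 were higher and 16 lower, 2 lower below an unadjusted p of 0.05, with a median of −0.05 (−0.10 to 0.05 over the other settings). In culture 14 of 27 rose and 10 fell, with a median of 0.34. The difference passed for 6 of 28 higher in tumors and 9 lower, against 16.5% and 14.7% of all genes. Pmaip1, which encodes the pro-apoptotic NOXA, had 32.7 to 98.7 CPM (median 68.4) against 37.2, 38.7, 28.5, 43.5 and 67.9 CPM in tumors (−0.64, adjusted p = 0.274). In culture it rose from 32.9 and 34.03 CPM to 182 and 197 CPM (2.50, adjusted p = 2.49e-26), with a difference of −3.12 (adjusted p = 3.09e-05). Cdkn1a, the cell cycle inhibitor p21, also picked after its values were seen, had 29.1 to 45.4 CPM (median 39.1) against 27.1, 35.3, 26.6, 54.7 and 59.5 CPM (0.06, adjusted p = 0.909). In culture it rose by 2.16, and the difference passed (−2.06, adjusted p = 0.000355). No NRF2 or p53 gene passed the adjusted threshold in tumors in edgeR, DESeq2 or limma-voom.

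Genes of the ubiquitin system and the proteasome were close to the vehicle level. Of 33 subunits of the 26S proteasome 31 were lower and 2 higher, 3 lower below an unadjusted p of 0.05, with a median of −0.10 (−0.16 without vehicle tumor 6), all 33 intervals within 1 and 0 past the threshold in edgeR, DESeq2 or limma-voom. In culture 26 of them rose and 4 fell, with a median of 0.25. The difference passed for 14 of 33 lower in tumors and 1 higher, against 14.7% and 16.5% of all genes. Psmd8, a regulatory subunit, had 187 to 216 CPM in vehicle tumors (median 199.7) and 168, 176, 165, 151 and 216 CPM with TAK-243 (−0.21, adjusted p = 0.31), and rose by 0.45 in culture (difference −0.63, adjusted p = 0.00253). Of 13 ubiquitin and E1 genes 6 were higher and 7 lower, 1 higher and 2 lower below an unadjusted p of 0.05, with a median of −0.05 (−0.08 to 0.05 over the other settings) and 0 past the threshold in edgeR, DESeq2 or limma-voom. Uba7, the E1 of ISG15, stood highest at 0.65 (adjusted p = 0.184). Rps27a, which encodes ubiquitin fused to a ribosomal protein and is the most abundant of these, had a change of −0.11 (adjusted p = 0.662).

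Autophagy receptors and ATG8 proteins, which carry ubiquitin-tagged cargo to the lysosome, rose steeply in culture and barely differed in tumors. In culture 9 of 11 rose and 0 fell, with a median of 1.28. In tumors 11 of 12 were higher, 1 below an unadjusted p of 0.05, with a median of 0.14 (0.05 without TAK-243 tumor 5), all 12 intervals within 1, and 0 past the threshold in edgeR, DESeq2 or limma-voom. Sqstm1, the receptor p62, stood at 286 to 341 CPM in vehicle tumors (median 328) and at 331, 301, 319, 293 and 434 CPM with TAK-243. Tumor 5 alone lay above the vehicle tumors (0.08, SE 0.10, interval −0.15 to 0.30, adjusted p = 0.751). In culture it rose from 135 and 137 CPM to 784 and 763 CPM (2.51, adjusted p = 1.92e-31), and the changes differed by −2.40 (adjusted p = 3.76e-08). Map1lc3b, an ATG8 protein, had 131 to 175 CPM (median 147) against 169, 149, 155, 194 and 187 CPM in tumors (0.18, adjusted p = 0.373) and rose by 1.37 in culture (difference −1.16, adjusted p = 2.17e-05). Gabarap, of the same family, had 74.1 to 88.2 CPM (median 81.7) against 89.5, 90.7, 93.3, 111 and 105 CPM, all above the vehicle tumors (0.27, adjusted p = 0.17).

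Immediate early and NF-kB early response genes, which cells switch on within minutes of a stimulus, were higher in culture. There 27 of 31 rose and 1 fell, with a median of 1.47. In tumors 22 were higher and 9 lower, 2 higher below an unadjusted p of 0.05, with a median of 0.17, 0 past the threshold in edgeR and limma-voom and 2 in DESeq2. TAK-243 tumor 5 set the direction, since the median without it was −0.19. Fos, a subunit of AP-1, had 12.3 to 44.9 CPM in vehicle tumors (median 24.6) and 9.39, 10.03, 12.4, 41.3 and 123 CPM with TAK-243 (0.60, adjusted p = 0.679). Junb, another AP-1 subunit, had 127 to 202 CPM (median 155) against 114, 115, 149, 155 and 277 CPM (0.04, adjusted p = 0.944). Tumor 5 stood far above the rest for both, and tumors 1 and 2 lay below all vehicle tumors. Cxcl1, a chemokine that draws neutrophils, had 0.94 to 1.87 CPM (median 1.56) against 2.10, 1.92, 3.80, 3.72 and 3.95 CPM, with all 5 above the vehicle tumors (1.02, SE 0.24, adjusted p = 0.115). Cxcl2, with a like role, had 0.604 to 1.03 CPM (median 0.716) against 0.937, 0.543, 2.36, 3.69 and 4.14 CPM (1.61, adjusted p = 0.147). In culture these rose by 3.34 and 5.82, and the differences passed (−2.29 and −4.19, adjusted p = 0.000161 and 0.00105). The time from excision to freezing is not given in the sources used here.

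**Figure D4:**
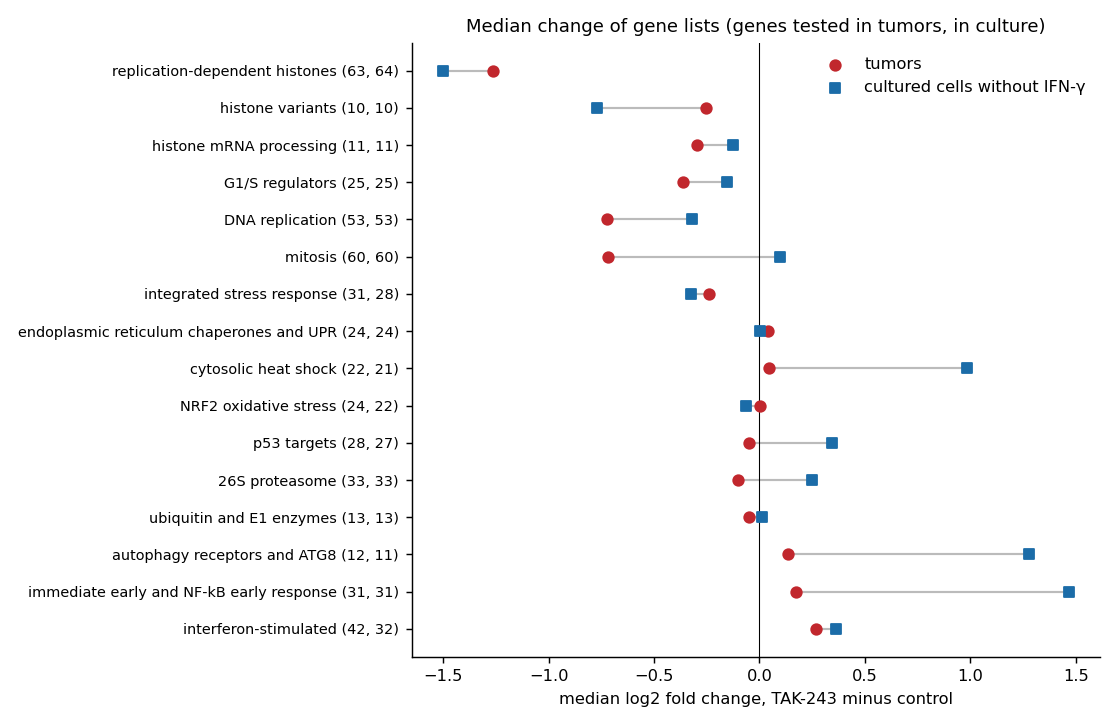
Median log2 fold change of 16 gene lists, TAK-243 minus control, in tumors (red circles) and in cultured cells without IFN-γ (blue squares), with the numbers of genes tested in brackets and a grey line joining the pair. Histones are low in both settings (−1.26 and −1.50), mitosis is low in tumors alone (−0.72 and 0.10), and heat shock, autophagy and early response genes are high in culture alone.

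To ask what of the culture response is absent in tumors, culture response genes were defined without any tumor value, as those with an adjusted p under 0.05 and a log2 change of at least 1 in the same direction both without and with IFN-γ. With IFN-γ, 4652 genes were higher (32%) and 5266 lower (36.2%) with TAK-243. The definition took 2860 genes, 1275 higher and 1585 lower in culture, of which 2699 were tested in tumors. In the tumors 7 of the 2699 passed the adjusted threshold, all of them histones lower in both settings (H2ac4, H4c3, H4c4, H4c8, H4c11, H4c12 and H4f16). The count was 0 without vehicle tumor 1, 3, 4 or 5 or TAK-243 tumor 1 or 4, 2 without vehicle tumor 2, 3 without TAK-243 tumor 3, 14 without vehicle tumor 6 and 71 without TAK-243 tumor 5. It was 122 with DESeq2 and 11 with limma-voom in both fits.

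In edgeR with all tumors and the low-count filter no gene that rose in culture passed in tumors, but these genes leaned the same way. Of the 1121 tested, 753 (67.2%) were higher in TAK-243 tumors and 368 lower, against 52.4% higher among all genes. Below an unadjusted p of 0.05 there were 138 higher (12.3%) and 33 lower, against 7.3% and 7.66% of all genes. Their median log2 fold change in tumors was 0.10, against 1.54 in culture by the smaller of both changes. For 937 genes (83.6%) the 95% interval in tumors lay short of 1, and for 1104 (98.5%) it lay short of the gene's own culture change. So for most of these genes the interval in bulk tumors lay below the culture estimate, whose own error was not counted. The intervals were set gene by gene, without adjustment for the number of genes. None of the 1121 passed in edgeR with all tumors and the low-count filter, but other settings called some of them. Among 20 settings tried, Oasl1 passed in 5, and Nupr1, Cxcl1 and Cxcl2 passed in 1 each.

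Genes that fell in culture, histones included, also leaned the same way in tumors. Of 1578 tested, 921 (58.4%) were lower and 657 higher, against 47.6% lower among all genes, with a median of −0.04 against −1.43 in culture. Below an unadjusted p of 0.05 there were 206 lower (13.1%) and 81 higher, against 7.66% and 7.3% of all genes. The interval lay short of −1 for 1432 genes (90.7%) and short of the culture change for 1511 (95.8%). Across the 14330 genes tested in both settings the log2 fold changes had a Pearson correlation of 0.20 and a Spearman correlation of 0.17, given as a description, since genes of 1 library are not independent.

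Single genes with the steepest culture changes show the gap. Egr1, an immediate early transcription factor, rose in culture from 1.47 and 1.69 CPM to 215 and 221 CPM (7.10, adjusted p = 1.37e-31). In tumors it had 9.37 to 24.8 CPM with vehicle (median 17.0) and 9.88, 10.4, 12.97, 20.6 and 38.9 CPM with TAK-243 (0.10, adjusted p = 0.912), and the changes differed by −6.97 (adjusted p = 1.89e-06). Fes, a tyrosine kinase that myeloid cells also express, rose from 0.128 and 0.125 CPM to 11.7 and 11.8 CPM in culture and had 4.58 to 5.55 CPM (median 5.23) against 5.14, 9.23, 4.50, 9.53 and 4.86 CPM in tumors (0.38, adjusted p = 0.407). Dhrs3, a reductase of retinal, fell in culture from 176 and 175 CPM to 4.36 and 5.06 CPM (−5.23, adjusted p = 3.85e-30). In tumors it had 124 to 249 CPM with vehicle (median 191) and 167, 127, 167, 201 and 239 CPM with TAK-243, with a change of −0.03 (adjusted p = 0.958) and a difference of 5.23 (adjusted p = 3.76e-08). Klf15, a transcription factor of metabolic genes, fell in culture from 43.3 and 46.3 CPM to 1.72 and 1.36 CPM (−4.83) and had 38.1 to 77.8 CPM (median 57.8) against 68.2, 47.2, 38.1, 44.4 and 29.97 CPM in tumors (−0.38, adjusted p = 0.431).

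Myc and genes of prostate cells also parted between the settings. Myc fell in culture from 676 and 661 CPM to 109.6 and 104 CPM (−2.64, adjusted p = 7.78e-31) and had a change of −0.31 in tumors (adjusted p = 0.567), with a difference of 2.36 (adjusted p = 0.000211). Fkbp5, a co-chaperone of HSP90, fell in culture from 473 and 475 CPM to 63.0 and 60.4 CPM (−2.94) and had 579 to 1015 CPM (median 911) against 900.0, 701, 596, 618 and 611 CPM in tumors (−0.34, adjusted p = 0.332). Its changes differed by 2.63 (adjusted p = 8.86e-07). Hoxb13, a transcription factor of the prostate, fell in culture (−1.64) and had a change of −0.33 in tumors (adjusted p = 0.303), with a difference of 1.35 (adjusted p = 0.000778).

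Tested directly, the change with TAK-243 differed between tumors and cultured cells for 5763 of 18456 genes, 3050 with a higher value in tumors (16.5%) and 2713 with a lower one (14.7%). Early response genes counted 21 of 31 and autophagy genes 8 of 12, all lower in tumors. For histones the difference passed for 2 of 65, both higher in tumors, and the median changes were −1.26 in tumors and −1.50 in culture. For DNA replication it passed for 3 of 53, and for mitosis for 24 of 60, 23 of them lower in tumors. This fit took 1 spread per gene for both settings, although replicate tumors differed far more than culture libraries. A difference that did not pass is thus no sign of equal changes. With separate variances for the settings limma-voom called 7638 genes, against 5763 here. In culture 30 mitotic genes rose and 20 fell, with a median of 0.10. Cdk1 rose by 0.26 in culture, from 177 and 180.0 CPM to 212 and 214 CPM, and the difference was −0.99 (adjusted p = 0.0136). Mki67 rose by 0.42, with a difference of −1.09 (adjusted p = 0.0119). Smc4, a condensin subunit and the most abundant mitotic gene, rose by 0.51 in culture and had a change of −0.53 in tumors (adjusted p = 0.131), with a difference of −1.01 (adjusted p = 0.00224). Tumors hold many cell types and culture 1, and the share of malignant cells in each tumor was not tested.

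**Figure D5:**
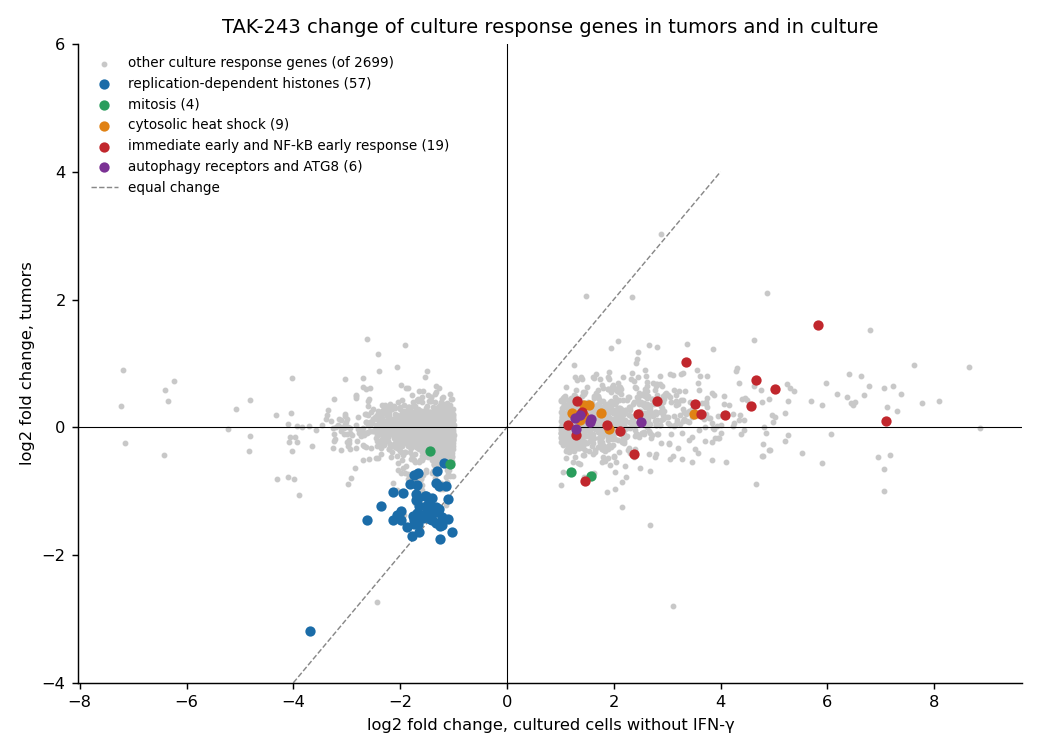
Log2 fold change with TAK-243 in tumors against that in cultured cells without IFN-γ, 1 point for each of the 2699 culture response genes tested in tumors, with 5 lists colored and a dashed line at equal change. Histones lie near the dashed line, while heat shock and autophagy genes lie near 0 on the tumor axis and early response genes reach at most 1.61 there (Cxcl2).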

How the data were processed

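Bulk RNA-seq of 11 Myc-CaP tumors (6 vehicle, 5 TAK-243) and 8 cultured Myc-CaP libraries was used, and the other samples of the series were not used here. The authors deposited expected count values per gene, which by the submitters' processing notes come from kallisto on mm10. The authors also deposited TPM values per gene, scaled by depth and transcript length. Expected counts were rounded and taken as counts, as the design made before the data were examined had assumed.

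Genes were filtered with filterByExpr, scaled with TMM and tested with edgeR 4.0.16 quasi-likelihood tests in R 4.3.3, with an adjusted p threshold of 0.05 (Benjamini-Hochberg over all genes tested). Tumors and cells were fitted separately, and the difference of their changes was tested in a joint fit. The code was tested on simulated data. Depth was 26121269 to 35046975 counts per tumor, and the median standard error of a log2 fold change was 0.146.

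Genes were named by a rule: genes past the threshold, Uba1, in each list the 4 with the smallest p and the 2 with the highest mean TPM in vehicle tumors, and the 10 largest increases and 10 largest decreases among culture response genes with a mean log2 CPM of at least 1 in tumors. Adgre1, Cdkn1a, Csf1r, Ddit3, Hmox1, Ly6g, Mki67, Pbsn and Saa3 lie outside it and were chosen after their values were seen. Lists and members were chosen with earlier results of these data known.

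Alternatives were DESeq2 1.42.0, limma-voom and limma-trend (limma 3.58.1) on log2(TPM + 1) and log2(TPM + 0.1), RLE scaling, no filter, 10 counts in every library, a replicate block, Bonferroni, other culture thresholds and each tumor left out. Leaving out both tumors numbered 5 was added after seeing the data.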

Additional observations from a re-analysis of the deposited data

Results flagged for a closer look

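In 31 of 260 groups of 5 or 6 tumors looked at, the highest or lowest tumor lay far from the others. The measure was its gap to the nearest tumor over the group's whole range, held against the 95% critical value of Dixon's test. Chance passes that value in about 1 in 20 groups only where values are independent and normally distributed. These groups share tumors and genes, so 31 of 260 cannot be held against that rate.

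For mean log2 CPM of the gene lists these were general macrophage genes in vehicle tumor 1 (3.51), and in TAK-243 tumor 4 monocyte genes (2.67), NRF2 genes (5.61) and proteasome genes (6.28). In TAK-243 tumor 1 they were skeletal muscle genes (2.81) and keratinocyte genes (4.05). For summed TPM they were monocyte genes in TAK-243 tumor 4 (654.7), keratinocyte genes in TAK-243 tumor 1 (139.8), and fibroblast and skeletal muscle genes in vehicle tumor 6 (456 and 547.5). Vehicle tumor 5 lay apart for neutrophil, mast cell and erythroid sums (20.2, 5.91 and 4845), and TAK-243 tumor 5 for erythroid sums (2845).

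Single genes with a tumor apart, in CPM, were Myc (1932) and Sbsn (16.5) in TAK-243 tumor 1, B2m in TAK-243 tumor 2 (1156), and H2ac21 (2.16), Ms4a4a (9.84) and Saa3 (66.3) in TAK-243 tumor 4. In TAK-243 tumor 5 they were Sqstm1 (434), Fos (123), Junb (277) and Ngp (4.54). Among vehicle tumors they were Csf1r (16.7), Apoe (75.2) and Ltf (0.0606) in tumor 1, Ngp (0.113) in tumor 3, Saa3 (38.8) in tumor 4, and S100a8 (1.09) and S100a9 (1.45) in tumor 5.

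The change with TAK-243 differed between tumors and cultured cells for 5763 of 18456 genes in edgeR, and for 33 of the 66 genes described that were tested in both settings. The log2 fold change in tumors minus that in culture was positive for Myc 2.36, Slfn4 1.85, Fkbp5 2.63, Klf15 4.49, Dhrs3 5.23, Hoxb13 1.35 and Xbp1 1.27. It was negative for Uba1 −0.41, Tubb6 −0.77, Slbp −0.84, Npat −1.30, Cks1b −0.91, Cdkn1a −2.06, Cdk1 −0.99, Mki67 −1.09, Smc4 −1.01, Oasl1 −3.36, Ddit3 −3.86, Hspa8 −1.24, Hsp90ab1 −1.09, Hmox1 −2.13, Pmaip1 −3.12, Sqstm1 −2.40, Map1lc3b −1.16, Egr1 −6.97, Fos −4.39, Junb −1.80, Cxcl2 −4.19, Cd79a −4.26, Cxcl1 −2.29, Fes −6.09, Psmd8 −0.63 and Sbsn −1.96.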

How the results depend on the processing

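All 25 genes past the threshold in tumors kept their direction in every alternative that tested them, and DESeq2 called all 25. Their number, 25, was 542 with DESeq2 (210 higher, 332 lower), 45 without a low-count filter, 0 with 10 counts in every library (2425 below an unadjusted p of 0.05 in edgeR), 3 with Bonferroni, and 1 to 299 with single tumors left out. With the tumor number as a block it was 8, all higher. Same-number tumors correlated by −0.179 to 0.315, and 1 of 5 correlated best with its own number. Of the calls, 7 of 18 were higher on log2(TPM + 1) and 8 of 18 on log2(TPM + 0.1), against 15 of 25. The stricter filter tested 17 of the 25 genes and left out low neutrophil genes. Otherwise the cause was not tested.

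Bonferroni gave 5793 genes in culture, 6036 with IFN-γ and 1044 for the difference. Leaving out single libraries gave 8940 to 9071 in culture and 4441 to 6017 for the difference. For the difference, limma-voom with separate variances for tumors and culture gave 7638 and DESeq2 gave 5985. The 7 culture response genes past the threshold in tumors became 0 at a culture change of at least 2, 122 with DESeq2, 11 with limma-voom, 2 without both tumors numbered 5, and 0 to 71 without single tumors. The cause was not tested.

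The median log2 fold change in tumors, macrophage, resident and alternatively activated genes, was 0.54. It was 0.36 with DESeq2, 0.39 with limma-voom, 0.36 without a filter, 0.69 without both tumors numbered 5 and 0.29 to 0.67 without single tumors. The neutrophil median of 3.45 was 0.63 with 10 counts in every library, 0.88 on log2(TPM + 1), 3.20 without both tumors numbered 5 and 3.25 to 3.57 without single tumors. Of 3954 values of 199 named genes, 239 lost the threshold and 74 gained it. No sign changed where a gene passed in either fit, and 92 values changed sign where it passed in neither. Depth limits the neutrophil genes, with 2 vehicle counts for Ltf.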
